A study of Homo sapiens and Mus musculus with 21 samples.

Results

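The 10 keratin genes described here are KRT7, KRT8, KRT13, KRT18, KRT19, KRT20, KRT23, KRT75, KRT80 and KRT86, read in the tumour cells of human colon carcinoma xenografts. They are 10 of the 55 protein-coding keratin genes in a human table of 58336 genes, found by joining Ensembl identifiers to GENCODE symbols. They were chosen by their measured levels and changes in these same libraries, so their values, and the calls that a fit across all genes made for them, are given as a description and count as no independent test. The 18 libraries come from 6 groups of 3. The study compared tumours with and without interference in canonical Wnt signalling, in which β-catenin acts with LEF and TCF factors in the nucleus. SW480 dnLEF1 and SW620 dnLEF1 tumours grew from cells that had received a dominant negative form of the factor LEF1 by lentivirus. SW620 LRP6KO tumours grew from cells transfected with CRISPR reagents against LRP6, a co-receptor for Wnt ligands, then selected with puromycin and sorted by flow cytometry for low LRP6 protein. SW620 Cas9 cells were the mock-transfected, sorted counterpart of LRP6KO, and SW480 Mock and SW620 Mock cells had received a mock lentivirus. All groups were grown in the caecum wall of immunodeficient NSG mice and harvested after 28 days, and the RNA is that of the whole caecum with its tumour. SW480 is an established line from a primary colon carcinoma and SW620 one from a lymph node metastasis of the same donor. The sources used here do not say that a group is a single clone.

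Keratins are the intermediate filament proteins of epithelial cells. A filament is built from pairs of 1 acidic type I and 1 basic type II keratin, so members of both types are needed in a cell. Simple epithelia such as the colon use KRT8 of type II with KRT18 and KRT19 of type I, while differentiated intestinal cells add KRT20, and stratified epithelia and hair follicles use other pairs. KRT8, KRT7, KRT75, KRT80 and KRT86 are type II genes and KRT18, KRT19, KRT20, KRT13 and KRT23 are type I genes.

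Levels are TPM, transcript abundances scaled by length to a total of 1000000 in each library, so genes can be compared with each other within a library. They keep no count of reads, so depth is unknown and no counting interval is given. A library held 24665 to 34709 genes above 0, with SW480 Mock replicate 2 (34709) and SW620 LRP6KO replicate 1 (34114) above all others. Of the epithelial markers, EPCAM was at 248.44 to 641.51 TPM and CDH17, an intestinal cadherin, was at most 1.17 TPM. CLDN4 ran from 143.37 to 628.81 TPM, and CLDN7 from 1.59 to 345.76 TPM with a median of 6.52 TPM. A sum of the epithelial markers can therefore follow single genes. The 9 markers of differentiated caecum epithelium summed to 0.44 to 7.53 TPM per library, with CLCA1 at 0 in 16 libraries and FABP2 at 0 in 15. Leukocyte markers summed to 1.2 to 14.22 TPM, endothelial markers to 0.72 to 8.25 TPM, fibroblast markers to 1.96 to 15.83 TPM and muscle markers to 3.04 to 30.02 TPM. These sums are of human genes, while the host cells are of mouse, so they do not measure host cell content. Single genes led some of them. CD68 had a median of 2.32 TPM, beside 0.1 for PTPRC and 0.0 for CD3E. PECAM1 had a median of 2.38 TPM, beside 0.22 for CDH5 and 0.04 for KDR. Libraries of 1 group are called biological replicates by the submitters, but the labels do not tie each to its own animal, so the spread may be partly technical. In RNA of whole tissue, fewer cells of a type and less RNA per cell cannot be told apart.

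The labels were checked on the targeted genes. LEF1 was at 47.2 to 99.4 TPM in SW480 dnLEF1, against 5.09 to 14.8 TPM in SW480 Mock, and at 18.3 to 24.0 TPM in SW620 dnLEF1, against 0.3 to 0.8 TPM in SW620 Mock (limma, adjusted p = 0.000851 and 7.48e-05), where a gene total counts the introduced form and the endogenous gene together. LRP6 was at 17.5 to 21.1 TPM in SW620 LRP6KO and at 10.9 to 17.8 TPM in SW620 Cas9, which overlap, and a transcript level does not read out an edit of the coding sequence. AXIN2, a feedback inhibitor that canonical Wnt signalling switches on, fell in SW480 dnLEF1 (limma, adjusted p = 0.0147) and was not called in SW620 dnLEF1 (adjusted p = 0.897). It was at 31.3 to 34.7 TPM in SW620 LRP6KO and at 33.8 to 44.2 TPM in SW620 Cas9, which overlap. The Cas9 libraries were above those of SW620 Mock, at 24.3 to 29.7 TPM, and neither comparison was called for AXIN2. With only the SW480 dnLEF1 and Mock groups in the fit, neither LEF1 (adjusted p = 0.087) nor AXIN2 (adjusted p = 0.224) was called in SW480.

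A pair of sequences bears on how the values can be read. KRT86 and its neighbour KRT81, both hair keratins, share an identical run of 605 coding bases, from coding base 61 to 665 in each. The start of that run is shown because reads within it cannot be assigned to 1 of the genes by sequence. It is given from GENCODE transcripts in lower case, for KRT86 at chr12:52301977-52302036 on the plus strand and for KRT81 at chr12:52291346-52291405 on the minus strand (GRCh38), both in coding exons.
KRT86: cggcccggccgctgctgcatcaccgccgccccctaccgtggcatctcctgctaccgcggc
KRT81: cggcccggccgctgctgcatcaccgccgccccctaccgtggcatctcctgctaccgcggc
Of the 50-base windows of each gene's longest protein-coding transcript, 40.5% of those of KRT86 also occurred in transcripts of other genes (33.3% in KRT81). So did 43.4% of those of KRT18 (19.8% in KRT8, whose annotated span overlaps it on the other strand). Of the windows of KRT8, 1.6% occurred in KRT18, so the shares depend on the transcript taken. For KRT13 the share was 18.4%, mostly with the antisense gene AC019349.1, and for KRT7 10.8%, mostly with KRT7-AS. It was 7.8% for KRT75, 5.0% for KRT23, 3.7% for KRT8, 1.8% for KRT19, 0.4% for KRT80 and 0.0% for KRT20. The protocol is not stated to keep the strand, which bears on the windows shared with genes of the other strand. The run of KRT86 and KRT81 is identical in the coding sense of each, so strand would not separate them. KRT18, KRT86, KRT13 and KRT7, and KRT8 where its transcripts overlap KRT18, carry this uncertainty in all that follows.

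KRT75 showed the largest difference of the 10 keratins with dnLEF1, a treatment that acts on LEF and TCF target sites, so the bases in front of its start were searched. RefSeq's promoter table (GRCh38.p14) holds KRT8, KRT20 and KRT75 of the 10 genes. Of the 250 bases before the RefSeq start of KRT75, the 96 that lie outside the GENCODE gene are shown, at chr12:52434526-52434621 on the minus strand, in lower case because they hold none of the motifs searched.
KRT75 upstream: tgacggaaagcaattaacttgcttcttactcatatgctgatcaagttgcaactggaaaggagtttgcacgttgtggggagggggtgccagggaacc
The motifs were the LEF and TCF core CTTTGA and the GC box GGGCGG, each on both strands, and the TATA box TATAAA on the strand of the gene. Over all 250 bases KRT75 held 1 GC box and neither of the other motifs, and KRT8 and KRT20 held none of them. The KRT8 window precedes a RefSeq start at 52926469 and lies wholly inside the GENCODE gene, which extends to 52949954. It therefore does not cover other starts of KRT8. Among 35116 RefSeq promoters of this length, 11.2% held CTTTGA, 42.6% GGGCGG and 6.8% TATAAA.

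The keratins of simple epithelia came first by level in every group, and they were lower in the dnLEF1 tumours of SW620. KRT8 (ENSG00000170421.12, chromosome 12, 52897187 to 52949954, GRCh38) is the main type II keratin of the gut lining. It was at 5019, 5373 and 6283 TPM in SW480 dnLEF1, against 7801, 8214 and 6077 TPM in SW480 Mock, and these groups overlap. In SW620 it was at 3429, 4548 and 4709 TPM in dnLEF1, against 6603, 6723 and 6433 TPM in Mock, with every dnLEF1 library below every Mock library. It was at 5185, 5404 and 5050.1 TPM in LRP6KO and at 4859, 6170.1 and 5293 TPM in Cas9, which overlap. By mean level the order was SW480 Mock, SW620 Mock, SW480 dnLEF1, SW620 Cas9, SW620 LRP6KO and SW620 dnLEF1. Of neighbours in that order, SW620 Mock and SW480 dnLEF1 did not overlap, nor did SW620 LRP6KO and SW620 dnLEF1, while the other neighbours did.

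KRT18 (ENSG00000111057.10, chromosome 12, 52948871 to 52952901) is the type I partner of KRT8 and lies beside it, away from the other type I genes on chromosome 17. It was at 6292, 9552 and 9099 TPM in SW480 dnLEF1, against 8693, 9416 and 7968 TPM in SW480 Mock. The first dnLEF1 library was low and the other two were within or above the Mock range. In SW620 it was at 3799, 4455 and 4360.3 TPM in dnLEF1, 5164, 5459 and 4788 TPM in LRP6KO, 4307, 5842 and 4694 TPM in Cas9 and 5801, 7305 and 6743 TPM in Mock. The dnLEF1 libraries were below all Mock libraries, and LRP6KO overlapped Cas9. Over the 18 libraries KRT18 ranked from 4 to 23 among all genes by TPM and KRT8 from 8 to 28.

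KRT19 (ENSG00000171345.13, chromosome 17, 41523617 to 41528308), the shortest keratin, which lacks a tail domain, was lower with dnLEF1 in both lines. It was at 1433, 1700.4 and 2035 TPM in SW480 dnLEF1, against 2417, 2948 and 2736 TPM in SW480 Mock. In SW620 it was at 1197, 1295 and 1298 TPM in dnLEF1, against 2116, 2554 and 2389 TPM in Mock. The groups did not overlap in either line. It was at 1742, 1800.2 and 1701 TPM in LRP6KO and at 1423, 1847 and 1556 TPM in Cas9, which overlap. In the order of means SW480 Mock and SW620 Mock overlapped, as did SW620 LRP6KO, SW480 dnLEF1 and SW620 Cas9, and SW620 dnLEF1 was below them all.

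**Figure D1:**
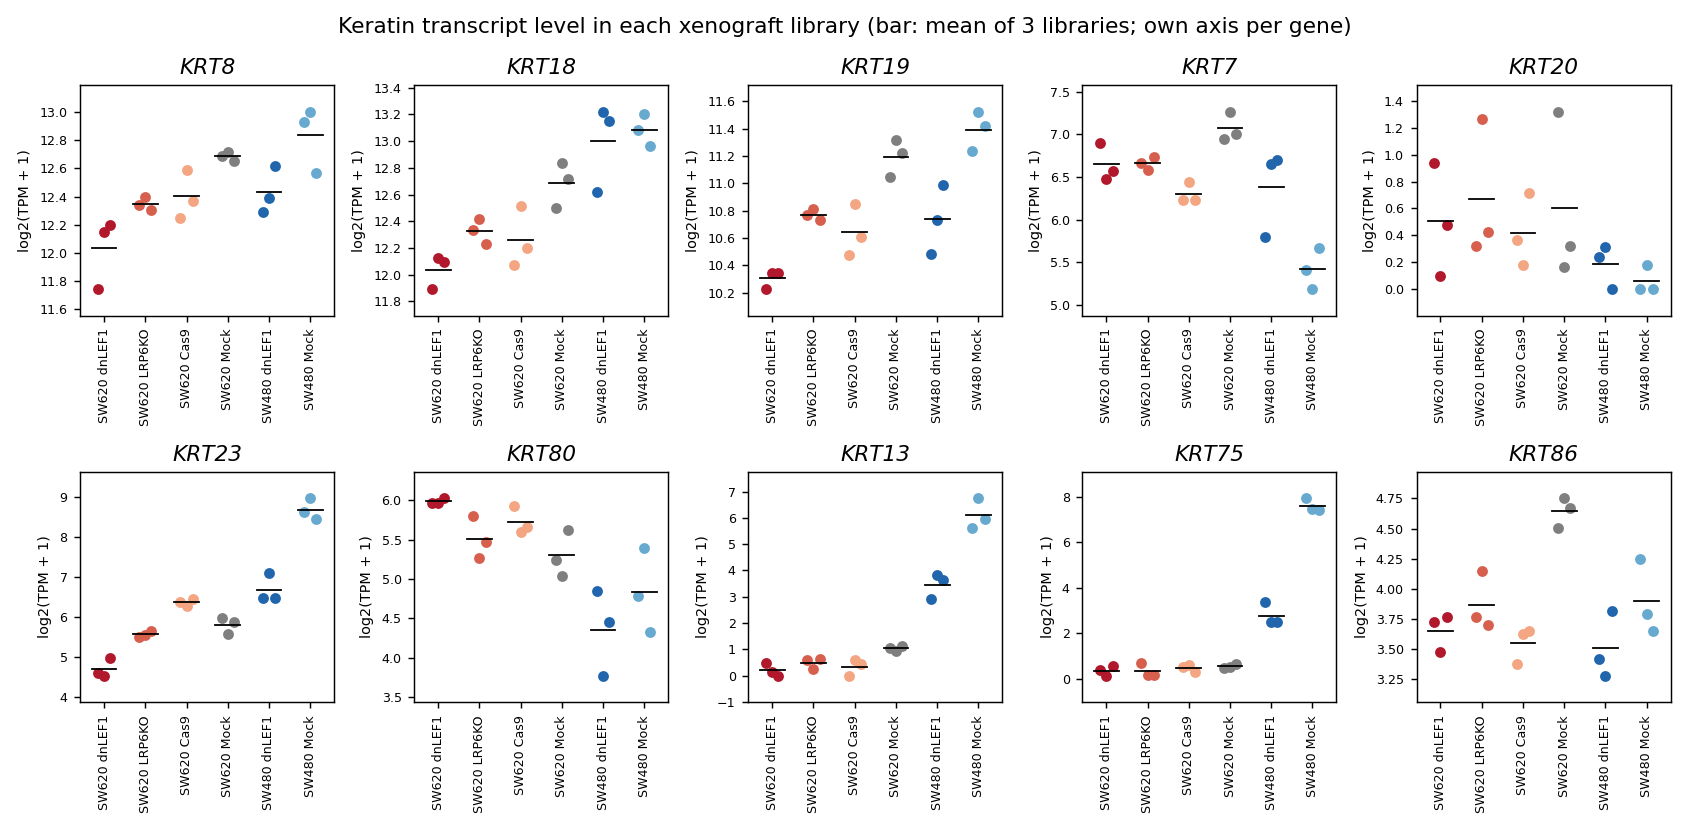
Level of each of the 10 keratins as log2(TPM + 1) in the 18 libraries, 1 point per library and a bar at the mean of each group of 3, with an axis of its own for each gene. KRT75 and KRT13 stand high in SW480 Mock (170.47 to 243.04 and 47.55 to 106.05 TPM), and KRT20 stays at or below 1.5 TPM everywhere.

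Summed over the 55 keratin genes, SW480 dnLEF1 libraries held 14225 to 19104 TPM, against 19811 to 23929 TPM in SW480 Mock. SW620 dnLEF1 libraries held 8789 to 10718 TPM, against 15004 to 17069.8 TPM in SW620 Mock. LRP6KO libraries held 11965 to 13075 TPM and Cas9 libraries 10987 to 14296 TPM. The sums did not overlap between dnLEF1 and Mock in either line and did between LRP6KO and Cas9. The LRP6KO and Cas9 sums were also below those of all SW620 Mock libraries. KRT8, KRT18 and KRT19 made up 95.9% to 97.1% of the sum in SW620 libraries and 84.7% to 92.3% in SW480 libraries. Most of the remainder in SW480 was KRT5, the type II keratin of basal cells in stratified epithelia, at 884.0 to 1183 TPM in dnLEF1, against 1827 to 2083 TPM in Mock, and at 1.63 to 8.47 TPM in SW620.

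The type I partners also differed in proportion. KRT19 made up 15.1% to 18.5% of KRT18 and KRT19 together in SW480 dnLEF1, against 21.8% to 25.6% in SW480 Mock, and 22.5% to 24.0% in SW620 dnLEF1, against 25.9% to 26.7% in SW620 Mock. In both lines the share did not overlap between dnLEF1 and Mock. SW620 Cas9 was also below SW620 Mock without overlap, at 24.0% to 24.9%, while LRP6KO, at 24.8% to 26.2%, overlapped SW620 Mock. The ratio of KRT8 to KRT18 was 0.56 to 0.8 in SW480 dnLEF1, against 0.76 to 0.9 in SW480 Mock, and 0.9 to 1.08 in SW620 dnLEF1, against 0.92 to 1.14 in SW620 Mock, both overlapping.

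**Figure D2:**
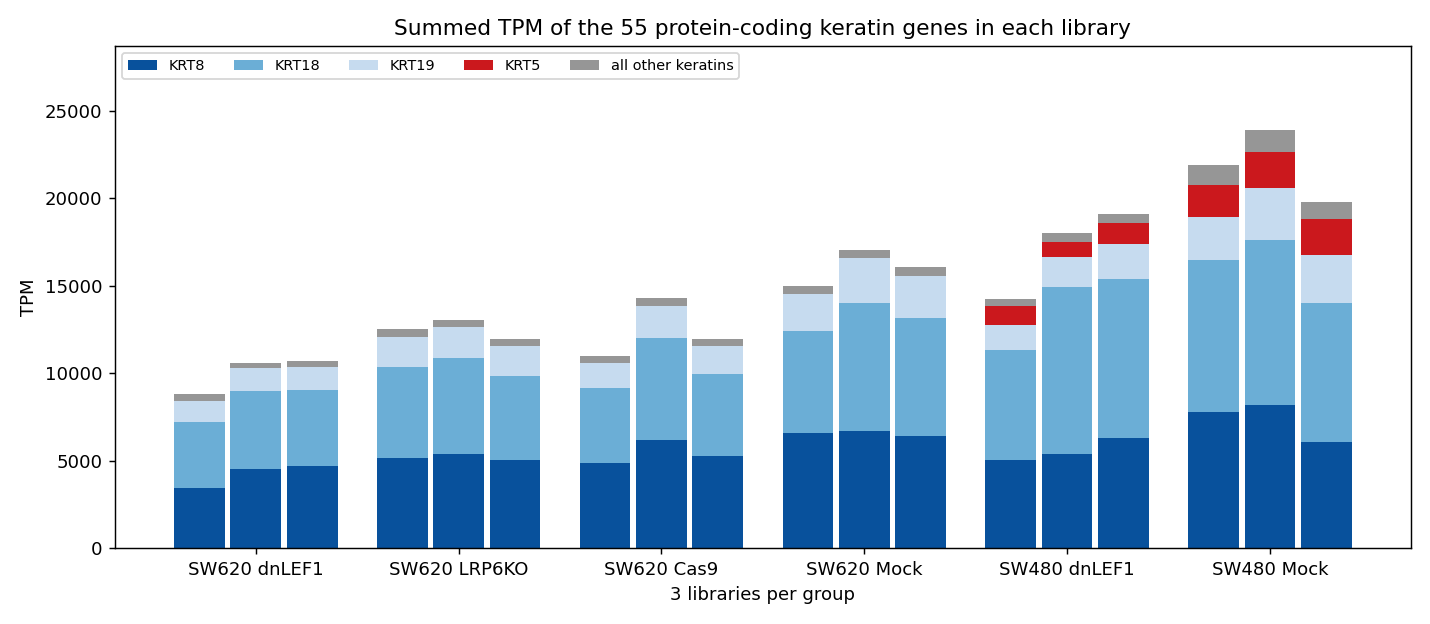
Summed TPM of the 55 protein-coding keratin genes in each library, stacked as KRT8, KRT18, KRT19, KRT5 and all others, with 3 libraries per group. SW620 dnLEF1 bars reach 8789 to 10718 TPM and SW620 Cas9 bars 10987 to 14296 TPM, against 15004 to 17069.8 TPM in SW620 Mock. KRT5 is visible in SW480 only, at 884.0 to 1183 TPM in dnLEF1 and 1827 to 2083 TPM in Mock.

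KRT7 and KRT20 are read together in pathology, since most colorectal carcinomas stain for KRT20 and not for KRT7. Here KRT7, a type II keratin of glandular and ductal epithelia, was present in every library and KRT20 was near 0. KRT7 (ENSG00000135480.15, chromosome 12, 52232520 to 52252186) was at 54.7, 99.5 and 103 TPM in SW480 dnLEF1, against 41.5, 35.5 and 49.8 TPM in SW480 Mock. All dnLEF1 libraries were above all Mock libraries, the first only just. In SW620 the order was the other way, with 118.3, 87.7 and 94.5 TPM in dnLEF1, against 122.4, 153 and 127 TPM in Mock, and the groups did not overlap. LRP6KO libraries, at 100.6, 94.7 and 105.5 TPM, were above Cas9 libraries, at 74.4, 85.9 and 74.4 TPM. By mean level SW620 Mock was highest at 134.1 ± 16.6 TPM, and SW480 Mock lowest at 42.3 ± 7.19 TPM and below all other libraries (SD, n = 3 each). Between them LRP6KO, SW620 dnLEF1, SW480 dnLEF1 and Cas9, in that order, overlapped with their neighbours.

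KRT20 (ENSG00000171431.3, chromosome 17, 40875941 to 40885227) was at most 1.5 TPM in any library. It was at 0.18, 0.24 and 0 TPM in SW480 dnLEF1 and at 0, 0.13 and 0 TPM in SW480 Mock. SW620 libraries had 0.07 to 0.92 TPM in dnLEF1, 0.25 to 1.41 TPM in LRP6KO, 0.13 to 0.64 TPM in Cas9 and 0.12 to 1.5 TPM in Mock. All groups of SW620 overlapped, and KRT20 did not reach the minimum of 1 TPM in 3 libraries for the fit.

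KRT23 and KRT80 are found in several epithelia. KRT23 (ENSG00000108244.16, chromosome 17, 40922696 to 40937634), of type I, was lower with dnLEF1 in both lines and with LRP6KO. It was at 88.7, 135.4 and 87.8 TPM in SW480 dnLEF1, against 396.3, 498.3 and 347.9 TPM in SW480 Mock, a ratio of the means of 0.251. In SW620 it was at 23.3, 22.2 and 30.6 TPM in dnLEF1, against 62.5, 46.4 and 57.6 TPM in Mock, a ratio of 0.457. It was at 44.5, 45.9 and 49.4 TPM in LRP6KO, against 82.0, 76.7 and 87.2 TPM in Cas9, a ratio of 0.568. None of these pairs overlapped. KRT23 was the only one of the 10 keratins below its control without overlap in all 3 modified groups. Cas9 libraries were above SW620 Mock libraries, and LRP6KO at 46.6 ± 2.49 TPM overlapped SW620 Mock at 55.5 ± 8.24 TPM (SD, n = 3 each). In the order of means, from SW480 Mock through SW480 dnLEF1, SW620 Cas9, SW620 Mock and SW620 LRP6KO to SW620 dnLEF1, only SW620 Mock and LRP6KO overlapped as neighbours.

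KRT80 (ENSG00000167767.13, chromosome 12, 52168996 to 52192000), of type II, was at 27.8, 12.7 and 20.9 TPM in SW480 dnLEF1 and at 26.5, 41.2 and 19.1 TPM in SW480 Mock, which overlap. It was at 61.3, 61.6 and 64.1 TPM in SW620 dnLEF1, against 36.8, 31.8 and 48.4 TPM in SW620 Mock, with no overlap. It is the only keratin of the 10 that was higher in SW620 dnLEF1 in this way. LRP6KO libraries had 54.6, 37.3 and 43.3 TPM and Cas9 libraries 60.1, 47.4 and 49.5 TPM, and overlapped.

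The remaining 3 are keratins of stratified epithelium and hair follicle. KRT75 (ENSG00000170454.5, chromosome 12, 52424070 to 52434525), a type II keratin of the companion layer of the hair follicle, was high in SW480 Mock alone. It was at 9.35, 4.62 and 4.58 TPM in SW480 dnLEF1, against 243, 174.7 and 170.5 TPM in SW480 Mock, 31.7 times lower by the means. All 12 SW620 libraries had 0.1 to 0.63 TPM, and their groups overlapped. KRT13 (ENSG00000171401.14, chromosome 17, 41500981 to 41505705), a type I keratin of the upper layers of non-keratinising squamous epithelium, was also highest in SW480 Mock. It was at 6.49, 13.1 and 11.5 TPM in SW480 dnLEF1, against 47.6, 106.1 and 61.8 TPM in SW480 Mock, 6.93 times lower by the means. In SW620 it was at 0.4, 0.1 and 0 TPM in dnLEF1, 0.5, 0.19 and 0.55 TPM in LRP6KO, 0, 0.5 and 0.36 TPM in Cas9 and 1.06, 0.94 and 1.21 TPM in Mock. The Mock libraries were above those of the other SW620 groups, at a level near 1 TPM.

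KRT86 (ENSG00000170442.11, chromosome 12, 52249300 to 52309163), a type II keratin of the hair shaft, stood apart in SW620 Mock. It was at 12.2, 10.1 and 12.6 TPM in SW620 dnLEF1, 12.6, 16.7 and 11.99 TPM in LRP6KO, 9.41, 11.4 and 11.5 TPM in Cas9 and 21.7, 25.9 and 24.4 TPM in Mock. It was at 9.72, 8.71 and 13.1 TPM in SW480 dnLEF1 and at 18.03, 12.8 and 11.6 TPM in SW480 Mock, which overlap. All SW620 Mock libraries were above every other library, and each of the other groups overlapped with its neighbours in the order of means. KRT81, with which it shares the run printed above, was at 42.6, 84.8 and 98.9 TPM in SW480 dnLEF1, against 202.6, 189.2 and 134.5 TPM in SW480 Mock. In SW620, KRT81 was at 28.5 to 35.0 TPM in dnLEF1, 42.6 to 47.6 TPM in LRP6KO and 30.8 to 37.3 TPM in Cas9, against 58.7 to 63.7 TPM in Mock. The SW620 Mock libraries of KRT81 were thus above those of all other SW620 groups.

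The fit across all genes, limma on log2(TPM + 1) with a pooled spread over the 6 groups, gives the differences on a common scale. It covered the 22981 genes that reached 1 TPM in 3 or more libraries, among them 9 of the 10 keratins and 17 of the 45 other keratins. A gene was called at an adjusted p under 0.05 (Benjamini-Hochberg over all tested genes). For genes near 1 TPM the scale understates a change. The gene lists used below, other keratins included, were also chosen with earlier results of these data known. Calls for their genes are therefore a description as well.

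In SW480, dnLEF1 against Mock, 5 of the 9 keratins were called, where 2.23% of all genes were. KRT75 differed by -4.82 (SE 0.26), KRT13 by -2.65 (SE 0.3), KRT23 by -2.00 (SE 0.18), KRT19 by -0.66 (SE 0.13) and KRT7 by 0.96 (SE 0.21). KRT80 at -0.48 (SE 0.27), KRT8 at -0.4 (SE 0.14), KRT86 at -0.39 (SE 0.2) and KRT18 at -0.08 (SE 0.15) were not called. The same 5 were those whose groups did not overlap, 1 higher and 4 lower, as 11.7% of all genes did in either direction. Because the keratins were picked with these values known, nothing is read from the counts. With only the SW480 dnLEF1 and Mock groups in the fit, KRT75, KRT13 and KRT23 were called and 29 genes in all (0.154%), and the calls of KRT7 and KRT19 were lost. That of KRT7 was also lost under median-ratio scaling and without SW480 dnLEF1 replicate 2 or 3 or SW480 Mock replicate 1 or 2.

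Of 17 keratins outside the 10 that were tested, 5 fell in SW480 dnLEF1 and 0 rose, where 2.23% of all genes were called, with a median log2 change of -0.73, beside 0.03 over all genes. KRT6A, a type II keratin of wound epithelium and the companion layer, fell to 11.8 ± 4.12 TPM in dnLEF1, against 53.9 ± 8.36 TPM in Mock (SD, n = 3 each; limma log2 change -2.15, SE 0.36, adjusted p = 0.00443). Its near copy KRT6B fell to 1.2 ± 0.32 TPM, against 6.6 ± 0.57 TPM in Mock (-1.79, adjusted p = 0.001 by limma), and the counting of reads between these copies is uncertain. KRT81 fell by 1.27 on the log2 scale (adjusted p = 0.00873), and KRT71, of the inner root sheath of the hair follicle, to 5.68 ± 0.97 TPM, against 12.3 ± 1.61 TPM in Mock (adjusted p = 0.0209). The fifth, KRT36, a type I hair keratin named after its values were seen, was at 0.19 to 0.52 TPM in dnLEF1, against 1.24 to 3.41 TPM in Mock. KRT36 reached 1 TPM in SW480 Mock libraries only, so it passed the filter through the group where it was high. Its call and its place among the 5 are therefore a description and no test. KRT5, in every dnLEF1 library below every Mock library, was not called (log2 change -0.91, SE 0.34, adjusted p = 0.203), nor were KRT83 (-1.18, adjusted p = 0.0792) and KRT74 (-0.74, adjusted p = 0.187). With only the SW480 dnLEF1 and Mock groups in the fit, KRT6A was the only one of these 5 called, and each of KRT71 and KRT36 lost its call when SW480 dnLEF1 replicate 3 was left out, KRT71 also without SW480 Mock replicate 1 and KRT36 without SW480 Mock replicate 3. With an offset of 0.1 in place of 1, KRT81 was the only one of them called.

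**Figure D3:**
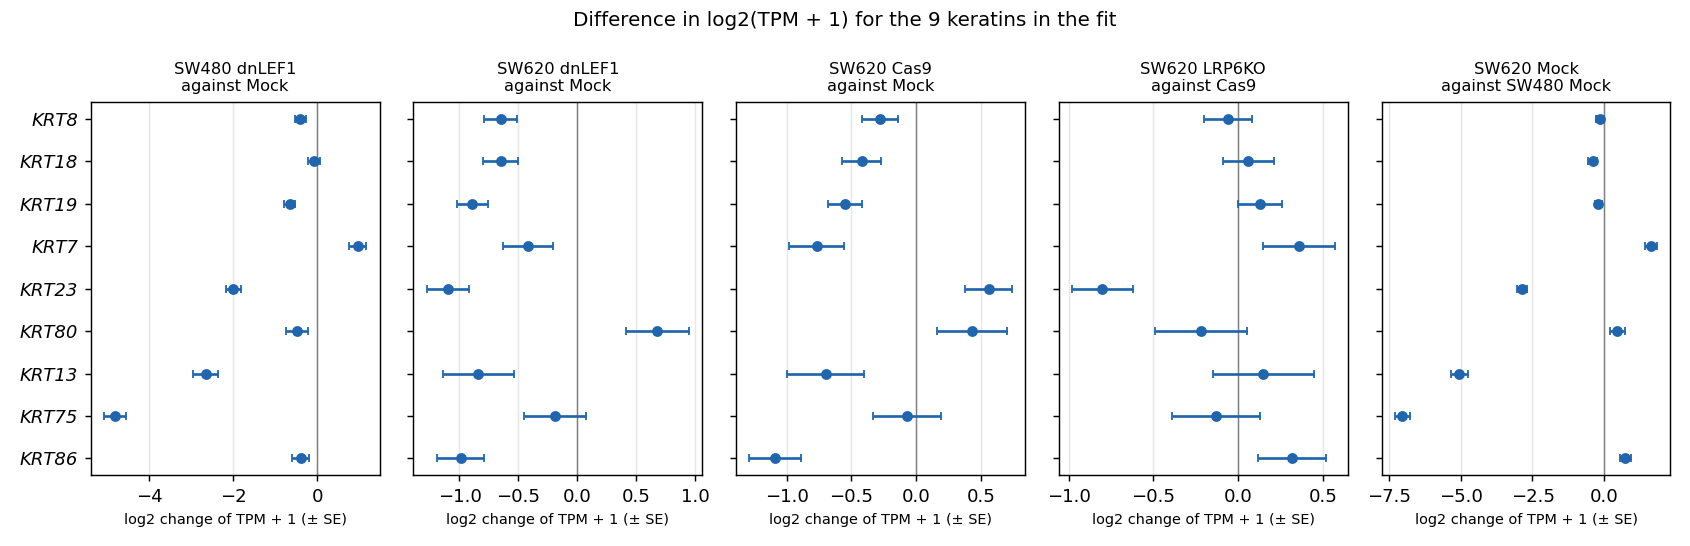
Difference in log2(TPM + 1) with its SE for the 9 keratins in the fit, 1 panel for each comparison, with the first named group higher to the right of 0. KRT75 and KRT13 lie far to the left in SW480 dnLEF1 against Mock (-4.82 and -2.65), and KRT7 lies right of 0 there (0.96) and left of 0 in SW620 dnLEF1 against Mock (-0.42).

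In SW620, dnLEF1 against Mock, KRT19 (log2 change -0.89, SE 0.13) and KRT23 (-1.1, SE 0.18) were called, 2 of 9, where 0.165% of all genes were. Groups did not overlap for 8 of the 9, as for 20.9% of all genes, and 7 of them were lower in dnLEF1, while 16.4% of all genes were lower without overlap and 4.49% were higher. With only the SW620 dnLEF1 and Mock groups in the fit, 4 were called, KRT18, KRT19, KRT23 and KRT86, where 0.728% of all genes were. Nothing is read from these counts either. KRT86 differed by -0.99 (SE 0.2), KRT13 by -0.84 (SE 0.3), KRT8 and KRT18 by -0.65 (SE 0.14 and 0.15), KRT7 by -0.42 (SE 0.21) and KRT80 by 0.68 (SE 0.27). KRT75, near 0 in SW620, differed by -0.19 (SE 0.26). The median over all genes was -0.12 in this comparison, and scaling by median ratios moved it to -0.00103. Under that scaling KRT19 differed by -0.72 and was not called, and KRT18 differed by -0.48. The call of KRT19 was lost without SW620 Mock replicate 2, and that of KRT23 without SW620 dnLEF1 replicate 1 or 2 or SW620 Mock replicate 1 or 3.

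Other measures moved with this comparison. The 6 epithelial markers summed to 464.9 to 591.1 TPM in SW620 dnLEF1, against 732.1 to 852.1 TPM in SW620 Mock. Mitochondrial genes made up 4.87% to 6.06% of TPM in SW620 dnLEF1, against 3.75% to 4.03% in SW620 Mock. The human leukocyte and endothelial marker genes, which do not measure host cells, summed higher without overlap (3.87 to 4.7 TPM in dnLEF1, against 2.15 to 3.08 TPM in Mock, and 3.72 to 4.34 TPM, against 2.87 to 3.66 TPM in Mock). The human fibroblast and muscle marker genes summed lower (1.96 to 4.04 TPM in dnLEF1, against 5.27 to 6.54 TPM in Mock, and 3.04 to 3.79 TPM, against 4.52 to 8.33 TPM in Mock). The part of these in the keratin differences was not tested. Of the 17 other keratins tested, 0 were called by limma and 5 had an unadjusted p under 0.05. With only the SW620 dnLEF1 and Mock groups in the fit 2 were called, KRT17 and KRT81. For KRT17 and KRT81 the Cas9 libraries were also below all SW620 Mock libraries. KRT17, a type I keratin of stress-exposed and follicular epithelium, was at 13.7 ± 1.66 TPM in dnLEF1 and at 30.8 ± 2.62 TPM in Mock (SD, n = 3 each, log2 change -1.12, adjusted p = 0.117 by limma with all groups). KRT15, of basal cells, was at 6.57 ± 0.86 TPM in dnLEF1 and at 13.2 ± 2.66 TPM in Mock (adjusted p = 0.216).

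In SW620 LRP6KO against Cas9, 0 of the 9 keratins and 0% of all genes were called by limma, with 766 genes (3.33%) at an unadjusted p under 0.05. With only the LRP6KO and Cas9 groups in the fit, 10 genes were called (0.059%), 0 of them among the keratins, and 0 keratins were called without LRP6KO replicate 1. KRT23 had the largest difference of the 9 (log2 change -0.8, SE 0.18), with KRT7 at 0.36 (SE 0.21) and KRT86 at 0.32 (SE 0.2). Groups did not overlap for these 3 keratins, as for 9.67% of all genes. KRT8, KRT18 and KRT19 differed by -0.06, 0.06 and 0.13, each with overlapping groups. Mitochondrial genes made up 3.93% to 4.2% of TPM in LRP6KO, against 4.73% to 5.71% in Cas9, and endothelial markers summed to 5.67 to 8.25 TPM in LRP6KO, against 1.92 to 3.03 TPM in Cas9. The part of these was not tested.

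The controls of SW620 were also compared with each other. In SW620 Cas9 against Mock, 0 of the 9 keratins and 0% of all genes were called by limma, with 1154 genes (5.02%) at an unadjusted p under 0.05. With only the Cas9 and Mock groups in the fit, 8 genes were called (0.0475%), 0 of them among the keratins. KRT86 differed by -1.09 (SE 0.2), KRT7 by -0.77 (SE 0.21), KRT13 by -0.7 (SE 0.3), KRT19 by -0.55 (SE 0.13), KRT8 by -0.28 (SE 0.14) and KRT23 by 0.56 (SE 0.18), all without overlap, as 14.2% of all genes. KRT18 at -0.42 (SE 0.15), KRT80 at 0.43 (SE 0.27) and KRT75 at -0.07 (SE 0.26) overlapped. The Mock libraries enter both this comparison and that of dnLEF1, so for KRT86, KRT7, KRT13, KRT19 and KRT8 the values of both rest on the same 3 libraries. The epithelial markers summed to 616.4 to 683.6 TPM in Cas9, against 732.1 to 852.1 TPM in Mock, and mitochondrial genes made up 4.73% to 5.71% of TPM in Cas9, against 3.75% to 4.03% in Mock, neither with overlap. Their part in these values was not tested.

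Between the lines, SW620 Mock against SW480 Mock, 5 of the 9 keratins were called, where 23.9% of all genes were, and nothing is read from that count. Groups did not overlap for 6 of the 9, as for 35.4% of all genes. KRT75 differed by -7.05 (SE 0.26), KRT13 by -5.06 (SE 0.3), KRT23 by -2.87 (SE 0.18), KRT7 by 1.65 (SE 0.21) and KRT86 by 0.74 (SE 0.2). KRT18 at -0.4, KRT19 at -0.2, KRT8 at -0.15 and KRT80 at 0.46 were not called. These 5 calls were kept under the alternatives run, including each library left out in turn.

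Of the 17 other keratins tested, 9 fell and 1 rose in SW620 Mock relative to SW480 Mock, where 23.9% of all genes were called, with a median log2 change of -1.18, beside -0.14 over all genes. KRT36, which passed the filter through SW480 Mock only, was among the 9. So were KRT71, KRT74 and KRT6B, which reached 1 TPM in SW480 libraries only. The calls of these genes are a description and no test. The epithelial markers summed to 732.1 to 852.1 TPM in SW620 Mock, against 1242 to 1477 TPM in SW480 Mock, and mitochondrial genes made up 3.75% to 4.03% of TPM, against 4.17% to 4.93% in SW480 Mock. Which single markers made the epithelial difference was not tested. Leukocyte markers were at 2.15 to 3.08 TPM in SW620 Mock, against 5.83 to 7.87 TPM in SW480 Mock, and endothelial markers at 2.87 to 3.66 TPM, against 0.72 to 2.35 TPM in SW480 Mock. The part of these in the keratin differences was not tested. KRT5 had 4.38 ± 0.88 TPM in SW620 Mock and 1977 ± 133.4 TPM in SW480 Mock (SD, n = 3 each; by limma -8.53 on the log2 scale with an SE of 0.34, adjusted p = 6.76e-11). Among other type II genes of chromosome 12 that fell were 4 with log2 changes of -4.42 for KRT6A (adjusted p = 1.35e-07), -4.35 for KRT74 (adjusted p = 6.29e-09), -3.52 for KRT71 (adjusted p = 5.42e-09) and -2.65 for KRT6B (adjusted p = 5.83e-07). The hair keratins KRT83 (-1.86) and KRT81 (-1.48) fell, and so did KRT16, the type I partner of the KRT6 genes (-1.18, adjusted p = 0.000903). KRT40, a type I hair keratin, rose to 53.3 ± 2.3 TPM in SW620 Mock, against 1.24 ± 2.06 TPM in SW480 Mock (log2 change 4.98, adjusted p = 9.52e-08), where 1 SW480 Mock library had 3.62 TPM and the others at most 0.11 TPM. KRT10, KRT15 and KRT17 had log2 changes of 0.69, -0.1 and 0.06 and were not called.

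**Figure D4:**
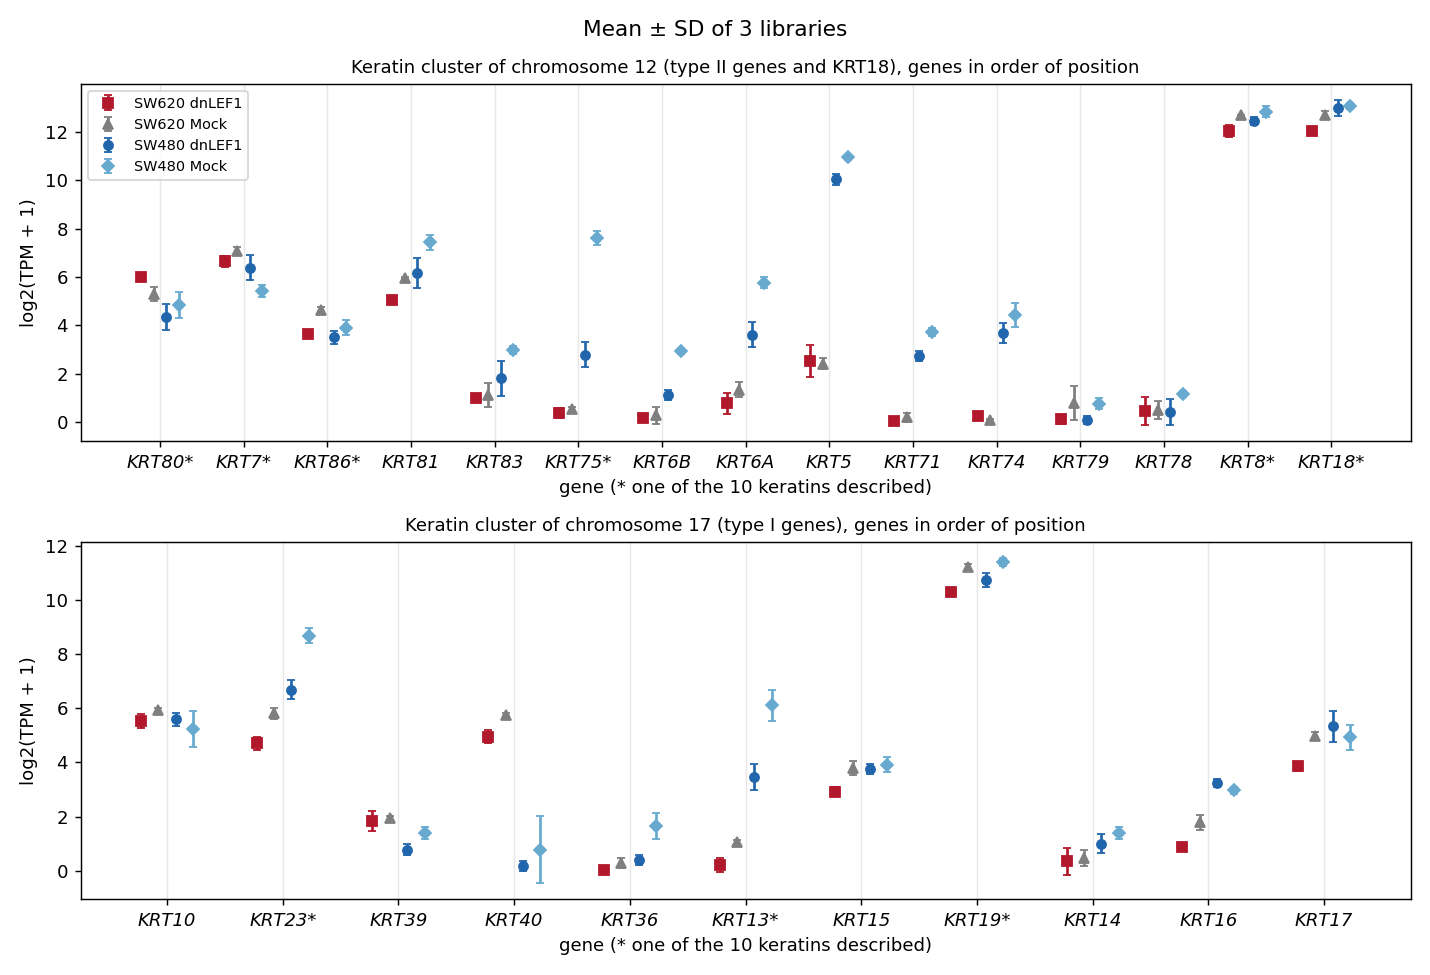
Mean and SD of log2(TPM + 1) over 3 libraries for each tested keratin in its order along chromosome 12 (upper panel) and chromosome 17 (lower panel), in the dnLEF1 and Mock groups of both lines, with stars at the 10 keratins described. From KRT75 to KRT74 the SW480 groups lie above the SW620 groups, with KRT5 at 1057 TPM in SW480 dnLEF1 and 1977 TPM in SW480 Mock, against 5.16 TPM in SW620 dnLEF1 and 4.38 TPM in SW620 Mock.

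The response to dnLEF1 was compared between the lines as the SW620 change minus the SW480 change. KRT75 at 4.63 (SE 0.37) and KRT7 at -1.38 (SE 0.29) were called, 2 of 9, where 0.718% of all genes were, and nothing is read from that count. KRT75 had little level to lose in SW620, where Mock libraries were at 0.39 to 0.57 TPM. KRT13 differed by 1.81 (SE 0.43), KRT80 by 1.16 (SE 0.39), KRT23 by 0.9 (SE 0.26), KRT86 by -0.6 (SE 0.28), KRT18 by -0.57 (SE 0.22), KRT8 by -0.25 (SE 0.2) and KRT19 by -0.24 (SE 0.19), and these were not called. KRT13 was at 0.94 to 1.21 TPM in SW620 Mock, where the log2(TPM + 1) scale understates a change. Its ratio of means, dnLEF1 over Mock, was 0.144 in SW480 and 0.159 in SW620, so its value here does not show unlike responses. Under median-ratio scaling KRT8 and KRT19 differed by 0.02 and 0.04 and the call of KRT7 was lost, while KRT75, KRT13 and KRT23 were called. With only the 4 groups compared in the fit, KRT75 alone of the 9 was called, where 0.202% of all genes were. The call of KRT7 was kept only without SW480 dnLEF1 replicate 1, SW480 Mock replicate 3 or SW620 dnLEF1 replicate 1 among the 12 libraries left out in turn. Of the 17 other keratins tested, KRT6B was called (1.68, SE 0.34, adjusted p = 0.0309), at a level of 0.59 TPM or less in SW620 dnLEF1 and Mock, and its call was lost with an offset of 0.1 or only the 4 groups in the fit, and kept only without SW480 dnLEF1 replicate 1 or 2, SW480 Mock replicate 2 or SW620 Mock replicate 3 among the libraries left out.

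Keratin filaments are anchored at desmosomes and hemidesmosomes and bound by linker proteins. Of 13 tested genes among 18 that anchor filaments in this way, 0 were called in SW480 dnLEF1 against Mock and 0 in SW620 dnLEF1 against Mock, with unadjusted p under 0.05 for 1 and 3 of them. In SW620 Mock against SW480 Mock 1 of the 13 rose and 3 fell, where 23.9% of all genes were called. DST, which encodes the hemidesmosome linker BPAG1 and its longer isoforms, rose to 83.3 ± 3.63 TPM in SW620 Mock, against 18.3 ± 5.48 TPM in SW480 Mock (SD, n = 3 each, log2 change 2.17, adjusted p = 1.97e-07 by limma). ITGB4, the hemidesmosome integrin subunit, fell to 47.5 ± 14.97 TPM in SW620 Mock, against 110 ± 43.7 TPM in SW480 Mock (adjusted p = 0.0257), and its partner ITGA6 fell by 0.61 (adjusted p = 0.0126). The desmosome gene PKP1 was at 0.12 ± 0.07 TPM in SW620 Mock and at 1.16 ± 0.19 TPM in SW480 Mock (adjusted p = 0.00835). PKP1 reached 1 TPM in SW480 libraries only, so it passed the filter through the line where it was high. Its call and its place among the 3 are a description and no test. Without SW480 Mock replicate 2 the calls of ITGB4 and ITGA6 were lost, as was that of ITGB4 without SW620 Mock replicate 1 and that of ITGA6 without SW620 Mock replicate 2. With only the SW620 Mock and SW480 Mock groups in the fit ITGA6 was not called (adjusted p = 0.0569).

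Of 11 tested genes among 13 for cross-linkers and keratin-binding proteins, TRADD, a signalling adaptor that binds KRT18 and KRT14, rose in SW480 dnLEF1 to 22.1, 30.99 and 30.01 TPM, against 16.1, 15.4 and 15.2 TPM in SW480 Mock (log2 change 0.78, SE 0.17, adjusted p = 0.0254 by limma). That call was lost under median-ratio scaling, with only the SW480 dnLEF1 and Mock groups in the fit and without any library of these groups except SW480 dnLEF1 replicate 1. In SW620 TRADD was at 18.9, 23.6 and 25.3 TPM in dnLEF1 and at 35.6, 36.1 and 43.9 TPM in Mock (-0.75, adjusted p = 0.132), and the difference between the lines passed (-1.53, SE 0.24, adjusted p = 0.00824). The SW620 Cas9 libraries, at 26.4, 33.8 and 28.0 TPM, were also below all SW620 Mock libraries for TRADD. In SW620 Mock against SW480 Mock 2 of the 11 rose and 4 fell, where 23.9% of all genes were called. SFN, the 14-3-3 protein that binds KRT17 and KRT18, fell by 1.77 (adjusted p = 1.26e-07), and LGALS3, a galectin, by 0.54 (adjusted p = 0.00384, not called under median-ratio scaling), while TRADD rose by 1.25 (adjusted p = 4.92e-05) and PNN, a desmosome-associated and nuclear protein, by 0.88 (adjusted p = 0.000444).

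Of 12 tested genes among 16 for other intermediate filaments, 0 were called in SW480 dnLEF1 and 0 in SW620 dnLEF1 against Mock, with 1 and 2 at an unadjusted p under 0.05. Vimentin (VIM), the filament of mesenchymal cells, was at 229.2 ± 90.7 TPM in SW480 dnLEF1 and at 255.2 ± 24.1 TPM in SW480 Mock (SD, n = 3 each). Between the lines, where 23.9% of all genes were called, 1 of the 12 rose and 3 fell. VIM rose to 553.2 ± 36.9 TPM in SW620 Mock, against 255.2 ± 24.1 TPM in SW480 Mock (adjusted p = 0.000475 by limma), and DES (log2 change -1.74), PRPH (-1.43) and SYNM (-0.7) fell, a call that SYNM kept only without SW480 Mock replicate 3 among the libraries left out. SYNM reached 1 TPM in SW480 libraries only, so its call is a description and no test. DES is also a muscle gene, and the 5 muscle markers, DES among them, summed to 4.52 to 8.33 TPM in SW620 Mock, against 15.99 to 30.02 TPM in SW480 Mock, the part of which was not tested.

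Of 16 tested genes among 22 for transcription factors of epithelia, CDX2, the intestinal homeobox factor, fell in SW480 dnLEF1 to 9.55, 15.8 and 12.7 TPM, against 41.4, 46.2 and 34.2 TPM in SW480 Mock (log2 change -1.62, SE 0.28, adjusted p = 0.00696 by limma). With only the SW480 dnLEF1 and Mock groups in the fit its adjusted p was 0.0784, and with an offset of 0.1 it was not called. In SW620, 0 were called in dnLEF1 against Mock by limma, 4 had an unadjusted p under 0.05 and 2 were called with only the SW620 dnLEF1 and Mock groups in the fit. The 2 were ELF3, lower in dnLEF1 (limma, adjusted p = 0.0347), and EHF, higher in dnLEF1 (adjusted p = 0.0449). ELF3, an epithelial ETS factor, was at 42.7 ± 3.51 TPM in SW480 dnLEF1 and 30.98 ± 4.56 TPM in SW480 Mock, and at 16.6 ± 1.15 TPM in SW620 dnLEF1 and 32.7 ± 2.65 TPM in SW620 Mock (SD, n = 3 each). With all groups in the fit neither change passed (adjusted p = 0.238 and 0.0611), and the difference between the lines did (-1.39, SE 0.26, adjusted p = 0.0199), though not under median-ratio scaling, nor without SW480 dnLEF1 replicate 3, SW620 dnLEF1 replicate 1, or SW620 Mock replicate 2 or 3. In SW620 Mock against SW480 Mock 4 of the 16 rose and 4 fell, where 23.9% of all genes were called, with log2 changes of -3.83 for CDX2, 3.51 for EHF and -2.18 for OVOL2. In LRP6KO against Cas9, and in Cas9 against Mock, 0 genes of these 4 lists and of the other keratins were called by limma. An unadjusted p under 0.05 was found for 1 transcription factor in LRP6KO, and for 4 transcription factors, 1 other keratin, 1 anchoring gene and 1 linker gene in Cas9.

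Likeness of pattern was measured as Pearson's r of log2(TPM + 1) over the 18 libraries, among 9303 protein-coding genes with a mean of at least 5 TPM. The libraries share their line and treatment, which set most of these values, so they are given as a description. KRT75 was most like ETV3 (r = 0.973), MFSD2A (0.968) and CPLX2 (0.968). With each line's mean subtracted, the genes most like it were SYK (0.935), CD8B (0.926) and NASP (0.921). KRT13 was most like DNTTIP1 (0.982), RCN1 (0.981) and TUBB6 (0.98), and after subtraction like FAH (0.91), DNTTIP1 (0.888) and S100A3 (0.885). SYK, for example, averaged 18.5 TPM in SW480 dnLEF1, against 104.6 TPM in SW480 Mock, and S100A3 194.4 TPM in SW480 dnLEF1, against 740.6 TPM in SW480 Mock.

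KRT19 was most like PLAU, the urokinase gene (r = 0.905), KRT8 (0.903) and KRT81 (0.824), and the same 3 came first after subtraction (0.884, 0.882 and 0.876). KRT8 was most like KRT19 (0.903), ATG101 (0.895) and the lamin gene LMNA (0.895), and after subtraction like RASSF1 (0.908), LMNA (0.887) and ATG101 (0.885). PLAU averaged 32.2 TPM in SW480 dnLEF1, against 54.5 TPM in SW480 Mock, and 25.0 TPM in SW620 dnLEF1, against 39.7 TPM in SW620 Mock.

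The table also lists 147 keratin pseudogenes, and whether their TPM comes from transcripts of their own or from reads of the parent genes was not tested. The 67 pseudogenes of KRT18 summed to 11.41 to 49.94 TPM per library, and the 50 of KRT8 to 14.0 to 50.16 TPM, beside 3799 to 9552 TPM and 3429 to 8214 TPM of the parent genes. No single one of them exceeded 13.12 TPM. The 5 pseudogenes of KRT19 summed to at most 11.63 TPM.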

How the data were processed

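RNA of whole mouse caecum bearing human xenografts was made into Smart-seq2 libraries, a full-length cDNA protocol, from RNA with an integrity number of at least 9, per the labels' protocols. The human table deposited by the authors holds TPM per gene, and the submitters' processing notes name Trimmomatic 0.35, Bowtie 1.2 and RSEM 1.2.31 with the builds hg38 and mm10. How reads were divided between human and mouse is not given in the sources used here. The mouse table and the 3 PBS samples among the 21 were not used. Depth is unknown from TPM.

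Of 58381 identifiers, 45 second copies of pseudoautosomal genes, at 0 throughout, were left out, and 58216 matched GENCODE 29 once the version was dropped. Genes that reached 1 TPM in 3 or more of 18 libraries entered limma 3.58.1 (R 4.3.3) as log2(TPM + 1), with the trend of variance on level, a mean per group and all 6 groups in the fit. P-values were adjusted by Benjamini-Hochberg within each of 6 comparisons at 0.05. The procedure was tested on simulated data. The 10 keratins, the gene lists and the comparisons were chosen with earlier results of these data known. Named besides the 10 were other keratins with a group mean of at least 5 TPM, up to 4 called genes per list and comparison with the smallest adjusted p, LEF1, LRP6 and AXIN2, and the 3 genes most alike KRT75, KRT13, KRT19 and KRT8; 1 gene that this rule names is not reported here. Alternatives were an offset of 0.1, no filter, median-ratio scaling, only the groups compared, array weights, a replicate block, and leaving out each library. Tables and figures used Python 3.11.15, numpy 2.4.6, pandas 2.3.3 and matplotlib 3.10.9.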

Additional observations from a re-analysis of the deposited data

Results flagged for a closer look

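Of the results above, 5 stood out because the response to dnLEF1 differed between SW620 and SW480 in the test of the difference itself (limma, adjusted p under 0.05). KRT75 differed by 4.63, KRT6B by 1.68, TRADD by -1.53, ELF3 by -1.39 and KRT7 by -1.38, each as the SW620 log2 change minus the SW480 log2 change. KRT7 and KRT75 were picked with these values known, and the lists that hold KRT6B, TRADD and ELF3 with earlier results of these data known. For all 5 this is therefore a description. For KRT7 the groups also lay apart in opposite directions, at 54.7 to 103 TPM in SW480 dnLEF1, against 35.5 to 49.8 TPM in SW480 Mock, and at 87.7 to 118.3 TPM in SW620 dnLEF1, against 122.4 to 153 TPM in SW620 Mock. TRADD and ELF3 were likewise higher in every SW480 dnLEF1 library than in SW480 Mock and lower in every SW620 dnLEF1 library than in SW620 Mock. For KRT7 and TRADD the SW620 Cas9 libraries were also below all SW620 Mock libraries. KRT75 and KRT6B were at 0.59 TPM or less in every SW620 dnLEF1 and Mock library.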

How the results depend on the processing

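Counts of called genes depended on the fit. With only the compared groups in the fit, the keratins called numbered 3 in SW480 dnLEF1, 4 in SW620 dnLEF1 and 1 for the difference between lines (5, 2 and 2 with all groups), and the list genes called, other keratins included, 1 in SW480 dnLEF1 and 4 in SW620 dnLEF1 (7 and 0). With array weights 6 keratins and 10 list genes were called in SW620 dnLEF1, 3 keratins and 1 list gene in Cas9 against Mock (101 of all genes), and 4 list genes in SW480 dnLEF1. An offset of 0.1 left 2 list genes in SW480 dnLEF1, median-ratio scaling 1 keratin in SW620 dnLEF1, and no filter 1 keratin for the difference between lines. The cause of these moves was not tested.

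Leaving out 1 library at a time gave 1 to 2 keratins in SW620 dnLEF1, 4 to 5 in SW480 dnLEF1, 1 to 3 for the difference, and 5 to 10, 0 to 0 and 1 to 4 list genes for the same comparisons. All genes called in SW480 dnLEF1 numbered 512, and 272 to 1223 with a library left out, the highest without SW480 dnLEF1 replicate 1; 333 with an offset of 0.1, 261 with array weights and 29 with only its groups. The other counts over 1.5 times apart were 272, 285 and 326, without SW480 dnLEF1 replicate 2 or 3 or SW480 Mock replicate 1. In SW620 dnLEF1 there were 38, with 21, 394 and 120 under the same 3 settings, and 17 to 26 with a library left out, over 1.5 times fewer for each of its libraries but SW620 Mock replicate 3. For the difference there were 165, with 358 under array weights, 108 under median-ratio scaling and 43 with only its groups. With a library left out there were 66 to 781, the highest without SW480 dnLEF1 replicate 1 and 275 without SW480 Mock replicate 2, and 66 to 109 without SW480 dnLEF1 replicate 3 or any library of SW620 dnLEF1 or Mock. Median-ratio scaling changed the split of calls to 190 higher and 223 lower from 311 and 201 in SW480 dnLEF1, to 21 and 17 from 13 and 25 in SW620 dnLEF1, and to 54 and 54 from 41 and 124 for the difference.

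The replicate number did not pair the libraries (correlations of deviations from -0.133 to 0.117), and with the replicate block 1 keratin was called for the difference between lines, KRT75, and the call of KRT7 was lost. Of the recomputed log2 changes of the keratins, 680 moved by less than 1 pooled SD within groups and 16 by more. None of the called ones changed sign. No filter, the replicate block and only the groups compared leave a difference of group means unchanged by construction. Leaving out 1 library of a pair of groups cannot move it by 1 SD, so this tally is no test of how stable the differences are. TPM keeps no depth, so the limit it sets is not known.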
